A study of Mus musculus with 8 samples.

Results

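The 10 genes described here, *Fos*, *Jun*, *Junb*, *Jund*, *Egr1*, *Atf3*, *Ier2*, *Klf6*, *Klf10* and *Btg2*, are immediate early response genes. They were taken as a named set, by symbol and with no threshold on a measured value, from the 45706 genes counted in liver RNA, and all 10 were among the 15491 genes with enough counts to be tested. RNA-seq of liver was available from 8 male mice, 4 labelled *Srsf10-kd* and 4 labelled *Ctrl*. All 8 were injected at 6 weeks of age with an adeno-associated virus of serotype 2/8 (AAV2/8) and were fed, from 4 weeks later and for 12 weeks, a high fat diet (HFD) with 60% of its calories from fat. In the *Srsf10-kd* group the virus carried a mirE/shRNA, a short hairpin RNA in a microRNA backbone, against *Srsf10*, which encodes a splicing factor of the SR protein family, and in the *Ctrl* group, whose genotype is given as wild type, it carried a control mirE/shRNA. The hairpin and a GFP reporter were driven by the chicken β-actin promoter, which is active in many cell types and not in hepatocytes alone, and the strain is given as C56B6/J in the labels and as C57BL/6J in the methods.

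Immediate early genes are switched on within minutes of a stimulus from transcription factors already present in the cell, with no need for new protein, and most of their mRNAs are soon destroyed. The FOS and JUN proteins pair to form the transcription factor AP-1. In liver these genes are known for responding to growth signals, injury, partial removal of the organ, metabolic stress, and the handling and dissociation of tissue.

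The targeted gene came first among the checks. *Srsf10* was at 34.3, 34.0, 41.0 and 36.5 CPM (counts scaled to library size, after TMM normalization) in the *Srsf10-kd*-labelled livers, numbered 1 to 4, and at 31.6, 33.7, 35.3 and 30.9 CPM in *Ctrl* 1 to 4. Its level was thus not lower in the *Srsf10-kd*-labelled livers, the groups overlapped, and the log2 fold change of 0.15 did not pass (edgeR quasi-likelihood test, adjusted p = 0.378). All directions below are therefore between livers as labelled. The column totals were 50456404 to 59697241 counts, and hepatocyte transcripts were abundant in every liver, as the sum of 6 markers including *Alb* was 68917 to 105154 CPM. Of the other cell types, the 5 cholangiocyte markers (*Krt19*, *Krt7*, *Epcam*, *Sox9*, *Spp1*) summed to 46.5 to 68.6 CPM in the *Srsf10-kd*-labelled livers and to 31.4 to 39.1 CPM in *Ctrl*. *Spp1*, *Krt19* and *Epcam* had an unadjusted p under 0.05, and no marker was at 0. *Sox9* and *Krt7* did not pass that rule (edgeR, unadjusted p = 0.269 and 0.327). *Krt19* was at 5.17, 6.79, 8.79 and 5.30 CPM in *Ctrl* 1 to 4. The cells that these transcripts come from were not tested. The sums for macrophages and Kupffer cells, endothelial cells, stellate cells, neutrophils and lymphocytes overlapped between the groups. At an unadjusted p under 0.05, *Lyve1* and *Pecam1* (endothelial) and *Cd79a* (B cells) were higher. *Stab2* (endothelial) and *Rgs5* (stellate list) were lower by that rule. The sum of 6 heat shock genes of tissue handling also overlapped (210.0 to 418.4 against 301.8 to 461.1 CPM). Of these 6, 4 had a fitted level higher in the *Srsf10-kd*-labelled livers. *Hspa1a* alone had an unadjusted p under 0.05. It was higher, at 3.95 to 5.81 against 3.03 to 3.61 CPM (log2 fold change 0.61, edgeR adjusted p = 0.116). Every library also held transcripts known from the intestinal mucosa, and *Srsf10-kd* 2 held transcripts of the exocrine pancreas, with values given below beside the members. In bulk tissue, fewer cells of a type and less RNA per cell cannot be told apart.

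The promoters of 7 members were in the RefSeq table used, which holds 250 bases before and 50 bases after each start site on GRCm38.p6. Sequences around motifs bound by the factor families that these genes answer to, or belong to, are shown here, to let the start regions of the members be compared. The 8-letter cyclic AMP response element, TGACGTCA, was found in the *Btg2* promoter alone, as in 1.79% of 32851 promoters. Its 5-letter core TGACG was found in *Fos*, *Junb*, *Atf3* and *Btg2* (20.8% of all promoters), and the looser 8-letter form TGANNTCA, which the JUN and ATF proteins share and which includes the full element, in *Jun*, *Jund*, *Klf6* and *Btg2* (14.1%). The core and the looser form were added after the full element had been searched, and every search covered both strands. Start sites are those of RefSeq, and for *Jund* the site lies upstream of, and for *Atf3* within, the GENCODE gene whose position is given further on. Only 1 match per gene is printed. *Fos* held another core 129 bases before its start. *Btg2* held another looser form 150 bases before its start, and *Jun* another at base 3 after its start. Capitals mark the motif, and each line runs 5′ to 3′ on the gene's own strand:

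*Fos*, chr12:85473814-85473838, plus strand, core 66 bases before the start: ttccgcccagTGACGtaggaagtcc

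*Junb*, chr8:84978840-84978864, minus strand, core 106 bases before the start: ttcctgacagTGACGcgagccgcct

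*Atf3*, chr1:191183326-191183350, minus strand, core in reverse 7 bases before the RefSeq start: aatagcattaCGTCAgcctgggatt

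*Btg2*, chr1:134079304-134079331, minus strand, full element 166 bases before the start: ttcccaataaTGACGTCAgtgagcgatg

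*Jun*, chr4:95052250-95052277, minus strand, looser form 45 bases before the start: agcctcggggTGACATCAtgggctattt

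*Jund*, chr8:70697668-70697695, plus strand, looser form 61 bases before the RefSeq start: gttgaggcagTGAAATCAccctcagtct

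*Klf6*, chr13:5861360-5861387, plus strand, looser form 119 bases before the start: tggtgcgagcTGACATCAtcgtcgcgca

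*Fos* also held a TATA box, TATAAA, 33 bases before its start, and *Junb* held 1 at its start (13.6% of all promoters). The EGR site GCGNGGGCG was found in *Btg2* (5.55%). The 7-letter AP-1 site TGANTCA (7.81%) and the CArG box of serum response factor (1.63%) were found in none of the 7 within this window. Sites more than 250 bases before the start, and the promoters of *Egr1*, *Ier2* and *Klf10*, were not searched. These are matches of letters in a window and not measured binding sites.

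Exon number varied among the members. *Jun*, *Junb*, *Jund* and *Ier2* have a single exon, as do 337 of 13396 tested coding genes (2.52%). In *Klf10*, whose 3 introns are 2706, 94 and 450 bases long, and in *Fos*, *Atf3* and *Klf6*, there are 4 exons, and *Egr1* and *Btg2* have 2. The pentamer ATTTA, the core of the AU-rich elements through which short-lived mRNAs are destroyed, occurred at least once in the 3′ UTR of 9 of 10 members (68.6% of 13342 genes with a 3′ UTR). It occurred 7 times in *Klf6*, 5 times in *Btg2* and 4 times in *Fos*, *Jun* and *Klf10*, and *Ier2* had none. The median density was 2.40 per kb for the members and 1.27 per kb for all genes.

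No member passed the test at an adjusted p under 0.05 in the edgeR fit of all genes. Only 11 genes did (0.071% of those tested), and all 11 were lower in the *Srsf10-kd*-labelled livers. At an unadjusted p under 0.05 there were 4 members, *Fos*, *Jund*, *Atf3* and *Klf6*, all higher, where 11.2% of all genes were higher and 10.6% lower by the same rule. In 2 members, *Jund* and *Klf6*, the *Srsf10-kd*-labelled livers all lay above the *Ctrl* livers, as in 6.73% of all genes. The fitted log2 fold change was above 0 for 8 of the 10 members (51.3% of all genes) and below 0 for *Egr1* and *Klf10*. Its median was 0.33 for the members and 0.01 for all genes.

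**Figure D1:**
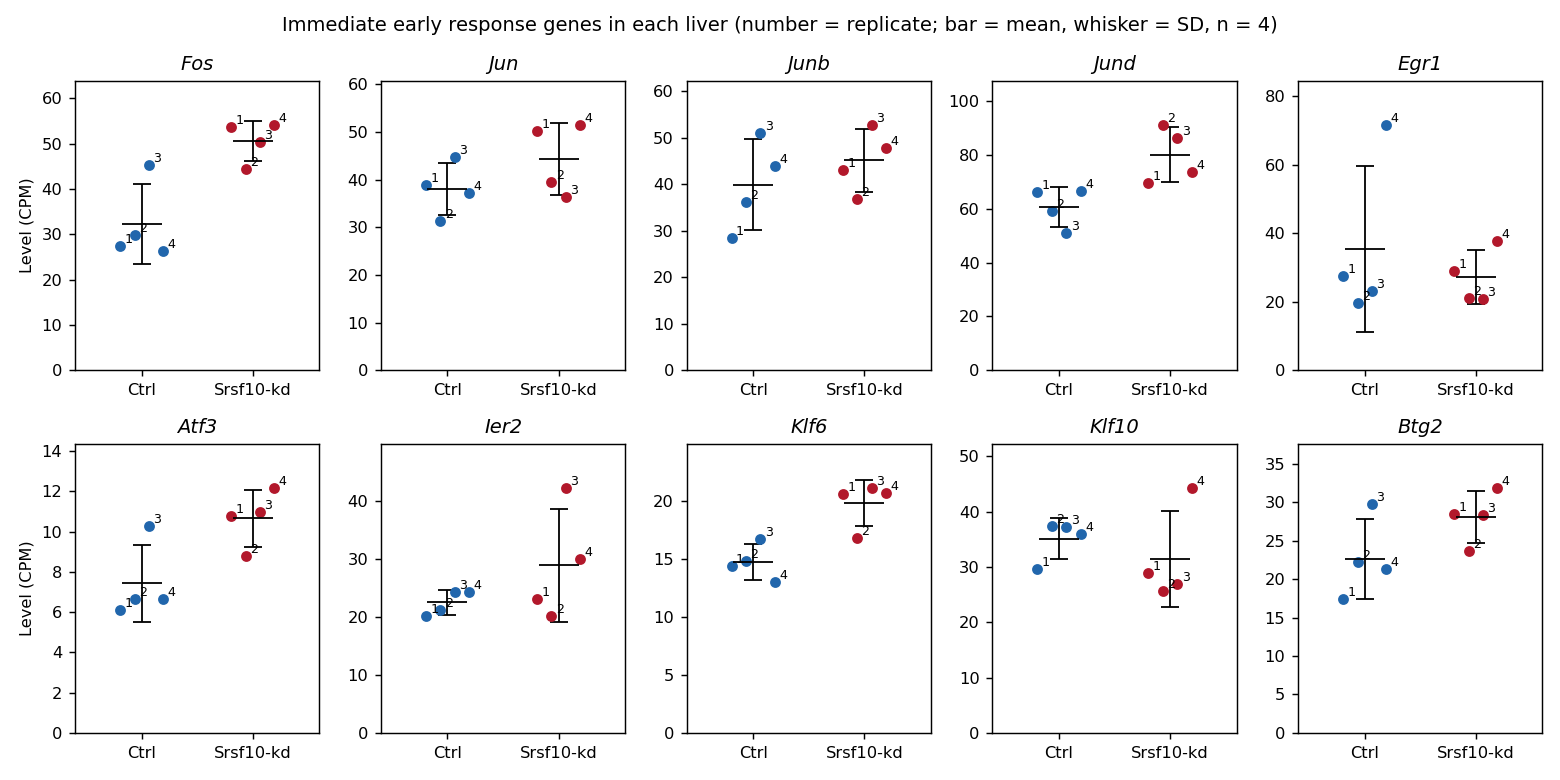
Level of each of the 10 genes in CPM (vertical axes, from 0) in the 4 Ctrl livers (blue) and the 4 Srsf10-kd-labelled livers (red), with the replicate number beside each point, the mean as a long bar and the SD as whiskers. The points of the groups do not overlap for *Jund* and *Klf6*, Ctrl 3 lies near the Srsf10-kd points for *Fos*, *Atf3* and *Btg2*, and Ctrl 4 stands apart for *Egr1* at 71.5 CPM.

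*Fos* (ENSMUSG00000021250, chr12:85473890-85477273, plus strand) encodes the partner of JUN in AP-1. It was at 53.5, 44.4, 50.4 and 54.1 CPM in the *Srsf10-kd*-labelled livers, numbered 1 to 4. In *Ctrl* 1 to 4 it was at 27.4, 29.8, 45.2 and 26.2 CPM. *Ctrl* 3 lay above the lowest of the *Srsf10-kd*-labelled livers, and the other 3 *Ctrl* livers lay below all 4 of them. The means were 50.6 ± 4.46 and 32.2 ± 8.82 CPM (SD, n = 4 each), a 1.57-fold difference. The log2 fold change was 0.65 ± 0.17 (SE), with an adjusted p of 0.122 (edgeR). An exact permutation test over the 70 ways to divide the livers 4 and 4 gave a two-sided p of 0.0571, where the smallest it can give is 0.0286. Without *Ctrl* 3 the log2 fold change of *Fos* was 0.86 and the adjusted p 0.0190 (edgeR), in a fit that called 3.47% of all genes. Over the fits with 1 liver left out it was 0.57 to 0.86, and *Fos* passed only without *Ctrl* 3.

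The 3 JUN proteins bind DNA as pairs with each other or with FOS or ATF proteins, and they differ in that JUNB and JUND restrain growth in many cells where JUN promotes it. *Jun* (ENSMUSG00000052684, chr4:95049034-95052222, minus strand) was at 50.3, 39.5, 36.4 and 51.5 CPM in the *Srsf10-kd*-labelled livers and at 38.9, 31.3, 44.7 and 37.2 CPM in *Ctrl*. *Junb* (ENSMUSG00000052837, chr8:84974484-84978718, minus strand) was at 43.1, 36.8, 52.8 and 47.9 CPM against 28.5, 36.2, 51.1 and 44.0 CPM. Both overlapped widely between the groups, and neither log2 fold change, 0.22 ± 0.15 for *Jun* and 0.18 ± 0.18 for *Junb* (SE), passed the test (edgeR, adjusted p = 0.376 and 0.563). *Jund* (ENSMUSG00000071076, chr8:70698949-70700616, plus strand) was at 69.5, 91.1, 86.4 and 73.5 CPM in the *Srsf10-kd*-labelled livers. In *Ctrl* it was at 66.1, 59.1, 51.0 and 66.4 CPM, so that the groups did not overlap, though *Srsf10-kd* 1 and *Ctrl* 4 were close. Its liver order was not that of *Fos*, as *Ctrl* 3 was the lowest *Ctrl* liver for *Jund* and the highest for *Fos*. The log2 fold change of *Jund* was 0.40 ± 0.13 (SE; edgeR, adjusted p = 0.152; exact permutation p = 0.0286).

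Genes that overlap members were counted separately, and which strand the counts refer to is not given in the sources used here. Of the 75-base stretches of *Jund*, 45.92% were shared with *Gm11175* on the other strand, which held 13 to 21 counts a liver against 2565 to 4738 for *Jund*. *Jun* shared 5.07% with *Junos* (147 to 316 counts a liver) and *Junb* 4.74% with *Prdx2* (4484 to 9111 counts), and the 7 other members shared none. The log2 fold change was 0.76 for *Junos*, 0.51 for *Prdx2* and 0.00 for *Gm11175* (edgeR, adjusted p = 0.0993, 0.148 and 0.995). The part of shared reads in the levels of the members was not tested.

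*Atf3* (ENSMUSG00000026628, chr1:191170296-191218039, minus strand) encodes a stress-induced factor of the ATF/CREB family, most often a repressor. It was at 10.8, 8.76, 11.0 and 12.2 CPM in the *Srsf10-kd*-labelled livers and at 6.11, 6.66, 10.3 and 6.64 CPM in *Ctrl*. As with *Fos*, *Ctrl* 3 lay within the other group and the other 3 *Ctrl* livers lay below it. The log2 fold change was 0.52 ± 0.18 (SE; edgeR, adjusted p = 0.163; exact permutation p = 0.0571). It was 0.72 without *Ctrl* 3 (edgeR, adjusted p = 0.0355), in a fit that called 3.47% of all genes. With 1 liver left out it ranged from 0.44 to 0.72, and *Atf3* passed only without *Ctrl* 3.

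*Egr1* (ENSMUSG00000038418, chr18:34859823-34864984, plus strand) encodes a zinc finger activator. It was at 29.0, 21.2, 20.8 and 37.7 CPM in the *Srsf10-kd*-labelled livers. In *Ctrl* it was at 27.5, 19.7, 23.2 and 71.5 CPM, the last of them well above the other 7 livers. The log2 fold change was -0.38 ± 0.39 (SE; edgeR, adjusted p = 0.553), and it turned to 0.21 without *Ctrl* 4 and to 0.15 in limma-voom with sample quality weights. No direction can be given for *Egr1*.

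The Krüppel-like factors *Klf6* and *Klf10* differed from each other in their values. *Klf6* (ENSMUSG00000000078, chr13:5861482-5870394, plus strand), a zinc finger factor known in injured liver, was at 20.7, 16.8, 21.2 and 20.8 CPM in the *Srsf10-kd*-labelled livers and at 14.4, 14.9, 16.8 and 13.0 CPM in *Ctrl*. The groups did not overlap, but *Srsf10-kd* 2 and *Ctrl* 3 nearly met. The log2 fold change was 0.43 ± 0.12 (SE; edgeR, adjusted p = 0.129; exact permutation p = 0.0286). *Klf10* (ENSMUSG00000037465, chr15:38291463-38300706, minus strand), a target of TGF-β and of the circadian clock, was at 28.9, 25.6, 26.8 and 44.3 CPM against 29.7, 37.5, 37.3 and 36.0 CPM. In *Srsf10-kd* 4 it was above every other liver, and in the other 3 livers of that label it was below every *Ctrl* liver. Its log2 fold change of -0.16 ± 0.18 (SE) did not pass (edgeR, adjusted p = 0.588). The difference between the changes of *Klf6* and *Klf10* was not tested.

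*Ier2* (ENSMUSG00000053560, chr8:84661331-84662852, minus strand) encodes a small nuclear protein and *Btg2* (ENSMUSG00000020423, chr1:134075170-134079120, minus strand) an inhibitor of proliferation that promotes mRNA deadenylation. *Ier2* was at 23.2, 20.2, 42.3 and 30.0 CPM in the *Srsf10-kd*-labelled livers and at 20.2, 21.3, 24.4 and 24.3 CPM in *Ctrl*, with *Srsf10-kd* 3 far above the rest and a log2 fold change of 0.12 without it. *Btg2* was at 28.5, 23.7, 28.3 and 31.9 CPM against 17.4, 22.2, 29.8 and 21.3 CPM, again with *Ctrl* 3 within the other group. Neither log2 fold change, 0.36 ± 0.21 for *Ier2* and 0.31 ± 0.16 for *Btg2* (SE), passed the test (edgeR, adjusted p = 0.321 and 0.281).

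**Figure D2:**
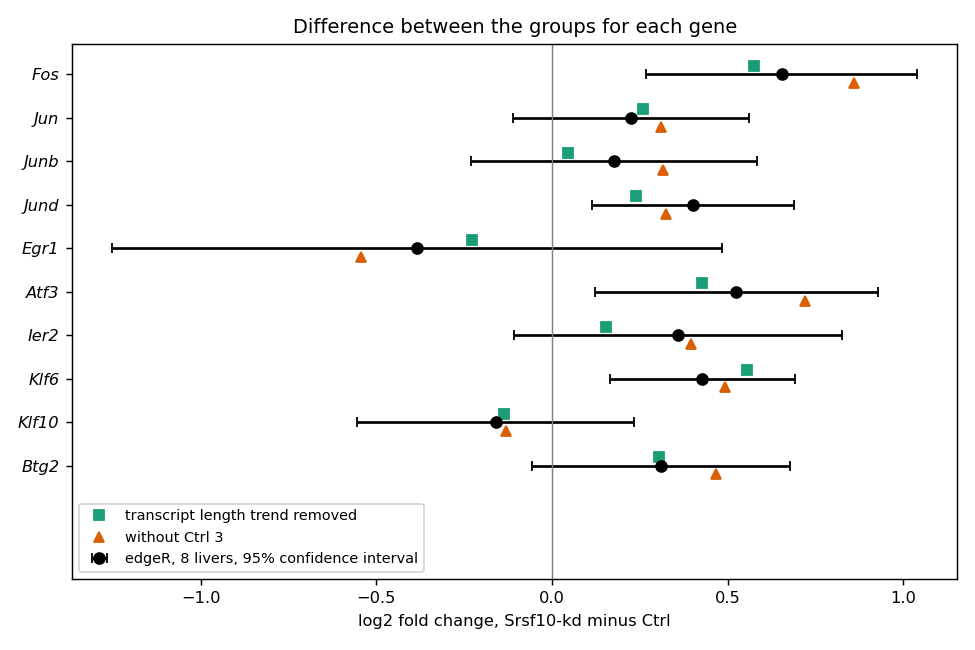
Log2 fold change of each gene, Srsf10-kd-labelled livers minus Ctrl (horizontal axis), from edgeR with its 95% confidence interval (black), with the trend with transcript length removed (green squares) and without Ctrl 3 (orange triangles). The interval lies above 0 for *Fos*, *Jund*, *Atf3* and *Klf6*, it is widest for *Egr1*, and the triangle lies farther from 0 than the circle for *Fos* (0.86 against 0.65) and *Atf3* (0.72 against 0.52). For both genes the triangle is the highest value of the fits with 1 liver left out.

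Per kilobase of transcript, *Jund* was the most abundant member in both groups, at 36.4 ± 4.35 CPM per kb in *Ctrl* and 48.0 ± 6.14 CPM per kb in the *Srsf10-kd*-labelled livers (SD, n = 4), and its livers did not overlap those of the next gene. In *Ctrl* the order of mean levels per kb after it was *Junb* (22.1), *Fos* (15.3), *Ier2* (14.8), *Jun* (11.9), *Klf10* (11.5), *Btg2* (8.27), *Egr1* (7.91), *Atf3* (3.74) and *Klf6* (3.49). Each of these neighbours overlapped the next in their *Ctrl* livers. The order of the means was the same in the *Srsf10-kd*-labelled livers, where *Btg2* and *Egr1* alone of those neighbours did not overlap.

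The members also differed from liver to liver within the groups. *Ctrl* 3 was the highest *Ctrl* liver for 7 of the 10 genes, *Srsf10-kd* 2 the lowest of its group for 7, and *Srsf10-kd* 4 the highest of its group for 6. Relative to the *Ctrl* mean, the median log2 deviation over the 10 genes was 0.28, 0.08, 0.48 and 0.43 in *Srsf10-kd* 1 to 4 and -0.18, -0.08, 0.22 and 0.01 in *Ctrl* 1 to 4. All 10 genes were above the *Ctrl* mean in *Srsf10-kd* 4 and 8 were in *Ctrl* 3.

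**Figure D3:**
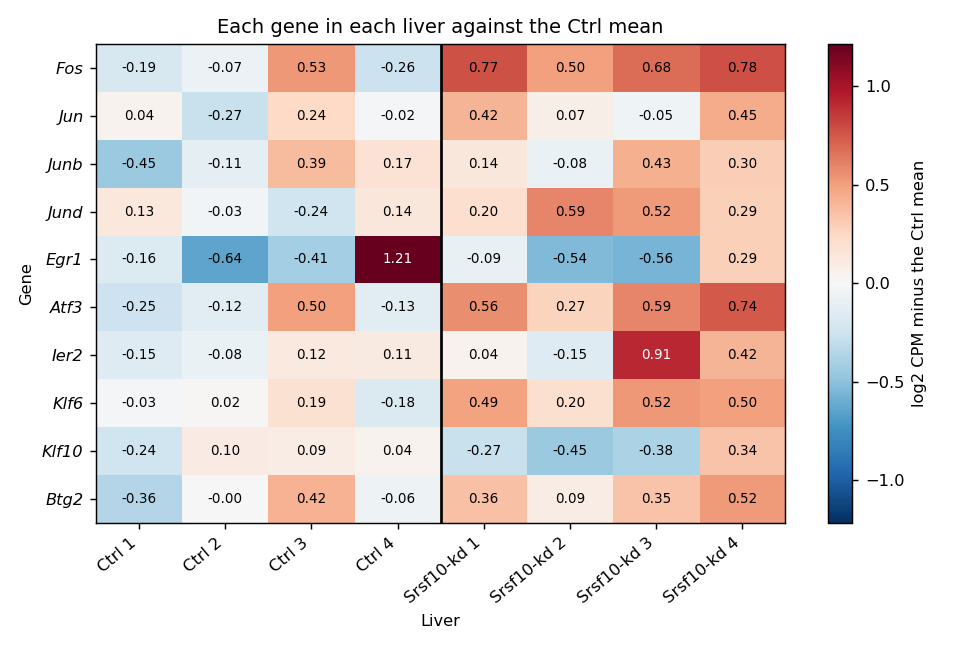
Log2 CPM of each gene (rows) in each liver (columns) minus the mean of the 4 Ctrl livers, from blue (lower) to red (higher), with the value printed in each cell. *Fos* and *Atf3* are above the mean in all 4 Srsf10-kd-labelled livers and in Ctrl 3, and *Egr1* in Ctrl 4 is the darkest cell.

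The genes whose level over the 8 livers was most like that of *Fos*, by Pearson's r of log2 CPM among 10957 abundant tested genes, were *Igha*, *Reg3g*, *Ly6c1*, *Ccl21a* and *Defa24*, with r of 0.996 to 0.999 and Spearman's rho of 0.976 to 1. Left without *Ctrl* 1 and *Ctrl* 4, the livers farthest from the median of *Fos*, r was 0.993 to 0.997. *Igha* encodes the heavy chain of immunoglobulin A, *Reg3g* an antimicrobial lectin of the gut epithelium, *Defa24* a defensin of intestinal Paneth cells, *Ly6c1* a surface protein of endothelial cells and leukocytes, and *Ccl21a* a chemokine of lymphoid tissue and lymphatic vessels. *Igha* was at 54.9, 46.0, 50.3 and 55.6 CPM in the *Srsf10-kd*-labelled livers and at 29.4, 32.2, 46.0 and 28.7 CPM in *Ctrl*. *Defa24* was at 52.5, 42.5, 51.1 and 53.5 CPM against 25.7, 30.1, 43.0 and 25.6 CPM. The ratio of *Fos* to *Defa24* was therefore 0.986 to 1.04 in the *Srsf10-kd*-labelled livers and 0.989 to 1.07 in *Ctrl*. That of *Fos* to *Reg3g* was 3.54 to 3.70 and 3.55 to 3.65.

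A list of 26 genes known from the intestinal mucosa was then written, with these results in view, and is given as a description. It holds *Defa24* and *Reg3g*, which had been picked above for their likeness to *Fos*. The closeness of *Fos* to the summed list is therefore in part set by that choice. Of the list, 25 genes were tested and none was at 0 in all livers, *Cdx2*, *Lyz1*, *Muc2* and *Tff3* among them. All 25 had a fitted level higher in the *Srsf10-kd*-labelled livers (51.3% of all genes). Of them 23 had an unadjusted p under 0.05 (11.2% of all genes) and none an adjusted p under 0.05 (edgeR). The median log2 fold change of the 25 was 0.77. The list summed to 180.4, 155.7, 172.8 and 181.2 CPM in *Srsf10-kd* 1 to 4 and to 86.2, 97.4, 146.9 and 85.3 CPM in *Ctrl* 1 to 4. *Ctrl* 3 was thus the *Ctrl* liver nearest to the other group for these genes, as it was for *Fos*, *Atf3*, *Klf6* and *Btg2*. For each 100 CPM of the list there were 28.5 to 29.8 CPM of *Fos* in the *Srsf10-kd*-labelled livers and 30.6 to 31.8 CPM in *Ctrl*.

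The other members followed the summed list to different degrees over the 8 livers. Pearson's r of the log2 levels was 0.997 for *Fos*, 0.963 for *Atf3*, 0.941 for *Klf6* and 0.881 for *Btg2*. Spearman's rho for these 4 was 0.976, 0.929, 0.929 and 0.833, and r without *Ctrl* 1 and *Ctrl* 4 was 0.994, 0.932, 0.891 and 0.762. For *Jun*, *Junb*, *Ier2* and *Jund* r was 0.643, 0.624, 0.50 and 0.406 (rho 0.619, 0.429, 0.405 and 0.548), and for *Klf10* and *Egr1* it was -0.142 and -0.337 (rho -0.0476 and 0). Without *Ctrl* 1 and *Ctrl* 4, r was -0.249 for *Klf10* and 0.609 for *Egr1*, so the sign for *Egr1* rests on those livers. An r of at least 0.9 was found for 3 of the 10 members and for 311 of 15466 tested genes outside the list (2.01%). *Fos*, for which the list was in part chosen, is among the 3, and genes that move with *Fos* are favoured by the same choice. The points share libraries and the difference between the groups, so no p is given. Transcripts of the exocrine pancreas (6 genes, including *Ctrb1* and *Pnlip*) were apart from this pattern, at 292.1 CPM in *Srsf10-kd* 2 and 7.16 to 20.9 CPM in the other 7 livers. Without *Srsf10-kd* 2 neither a member nor any other of 15664 genes passed (edgeR, adjusted p under 0.05), 5 members had an unadjusted p under 0.05 (23.3% of all genes) and 4 did not overlap between the groups (10.9% of all genes higher and 10.4% lower). Whether the intestinal and pancreatic transcripts come from the sequenced livers cannot be told from the counts. The part that they have in the levels of the members was not tested.

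**Figure D4:**
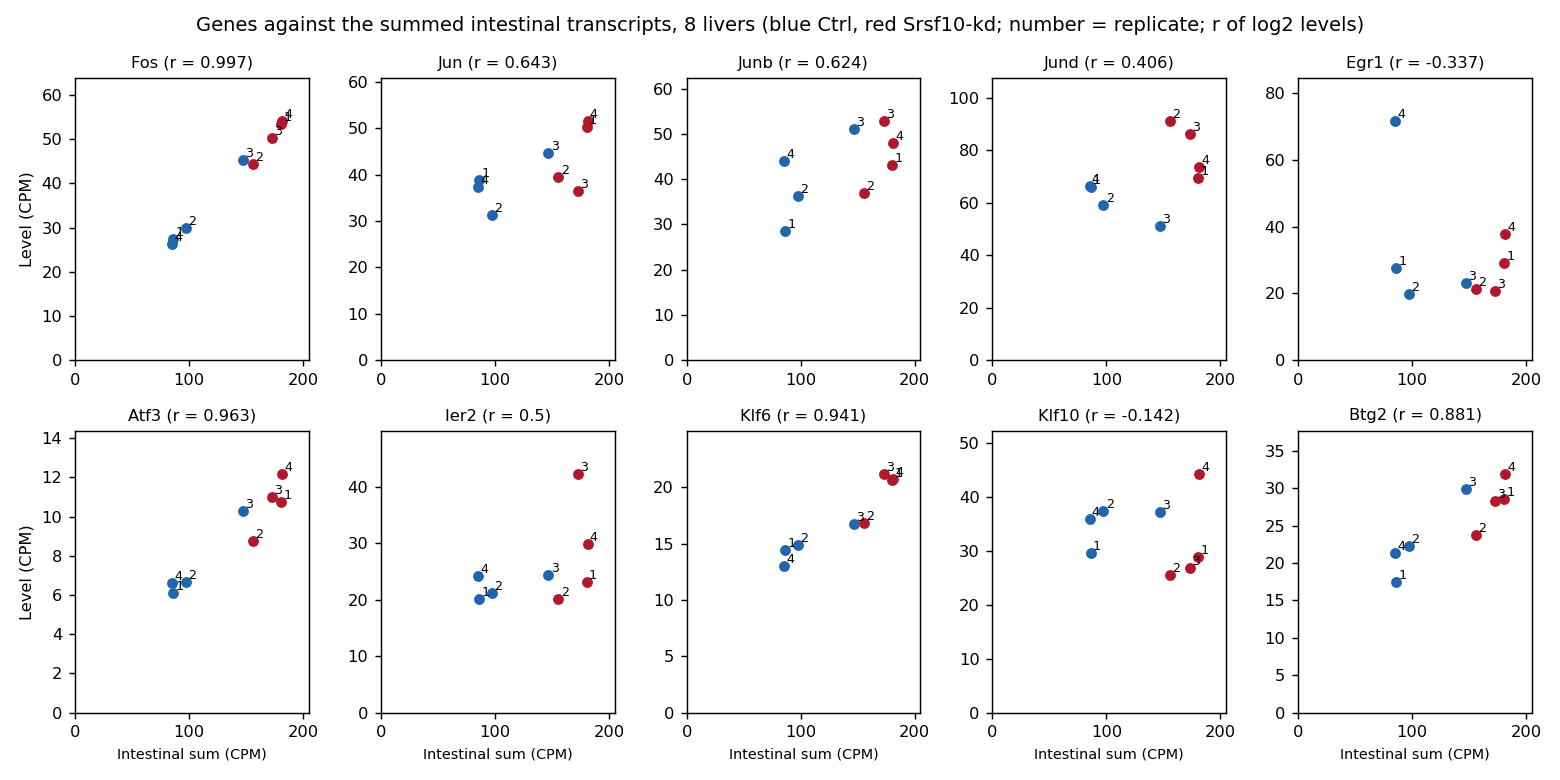
Level of each gene in CPM (vertical axes) against the summed level of the intestinal list in CPM (horizontal axes) in 8 livers, Ctrl in blue and Srsf10-kd in red, with the replicate number beside each point and r of the log2 levels above each panel. The *Fos* points lie along a line (r = 0.997) with Ctrl 3 beside the red points, and those of *Klf10* and *Egr1* do not (r = -0.142 and -0.337, the latter 0.609 without Ctrl 1 and Ctrl 4).

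The genes most like *Klf10* were *Nt5dc2*, *Ocln*, *Col5a2*, *Acot1* and *Gpat3*, with r of 0.901 to 0.942 and rho of 0.762 to 0.952. Without *Srsf10-kd* 2 and *Srsf10-kd* 4 r was 0.830 to 0.967. The 10 members thus did not form a single pattern over the livers.

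Fold changes in these libraries also moved with transcript length. Over 5 classes of tested genes by length, from short to long, the median log2 fold change was 0.33, 0.13, -0.01, -0.12 and -0.26. The second class, 1467 to 2364 bases, held *Fos*, *Junb*, *Jund*, *Atf3* and *Ier2*, the third *Jun*, *Klf10* and *Btg2*, and the fourth, 3359 to 4805 bases, *Egr1* and *Klf6*. With each library's trend with length removed, the log2 fold change was 0.58 for *Fos*, 0.43 for *Atf3*, 0.24 for *Jund* and 0.55 for *Klf6*, and the median of the members was 0.25 where that of all genes was 0.00. No member's groups were then without overlap, as against 10.1% of all genes. The part of length in each member's difference was not tested otherwise.

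Beyond the 10 members, 69 other primary response genes were listed, of which 66 were tested. None passed at an adjusted p under 0.05. At an unadjusted p under 0.05, 19 were higher (11.2% of all genes) and 2 lower (10.6%). A fitted level above that of *Ctrl* was found for 49 (51.3% of all genes). In 14 genes the *Srsf10-kd*-labelled livers all lay above *Ctrl* (6.73% of all genes), and in 1 below (7.53%). The median log2 fold change was 0.27, or 0.26 with the length trend removed.

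The transcription factors and the secreted factors held most of the 19. Of 16 tested transcription factors 7 were higher at an unadjusted p under 0.05 (*Fosb*, *Egr2*, *Nr4a1*, *Klf2*, *Klf4*, *Cebpb* and *Cebpd*) and of 9 secreted factors 5 (*Hbegf*, *Ccn1*, *Cxcl1*, *Edn1* and *Thbs1*). Over all genes 11.2% were higher by that rule. *Klf2*, a factor of endothelial cells that answers to blood flow, was at 11.5, 13.7, 11.0 and 8.75 CPM in the *Srsf10-kd*-labelled livers and at 7.36, 5.77, 6.03 and 6.79 CPM in *Ctrl*. Every liver labelled *Srsf10-kd* was above every *Ctrl* liver, with a log2 fold change of 0.79 ± 0.15 (SE; edgeR, adjusted p = 0.0889). *Klf4*, a related factor, was at 4.83 to 5.38 CPM against 2.71 to 3.94 CPM (log2 fold change 0.60; edgeR, adjusted p = 0.115). *Cxcl1*, a chemokine that draws neutrophils, was at 4.33 to 7.32 CPM against 2.96 to 3.61 CPM (0.78; edgeR, adjusted p = 0.113), and *Edn1*, the vasoconstrictor endothelin, at 3.31 to 5.26 CPM against 1.96 to 3.14 CPM (0.75; edgeR, adjusted p = 0.119).

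Genes that limit the response were found on both sides. *Nfkbia*, the inhibitor of NF-κB and itself a target of it, was at 77.6, 72.9, 75.5 and 76.2 CPM against 51.6, 52.9, 57.2 and 48.3 CPM. It had the smallest adjusted p of these named genes, at a log2 fold change of 0.52 ± 0.09 (edgeR, adjusted p = 0.0826). *Ier3*, a regulator of cell survival, was at 6.81 to 7.48 CPM against 3.77 to 6.05 CPM (0.61; edgeR, adjusted p = 0.116). Of the 8 MAP kinase phosphatases, which switch the kinases off, *Dusp1* and *Dusp2* were higher at an unadjusted p under 0.05 (11.2% of all genes). *Dusp4* and *Dusp16* were lower by the same rule (10.6%). *Dusp4* was at 1.29, 0.81, 0.47 and 0.91 CPM against 1.56, 2.19, 1.31 and 1.79 CPM, a log2 fold change of -0.98 ± 0.29 (SE; edgeR, adjusted p = 0.134). Of the factors that bind AU-rich elements, *Zfp36* alone was higher at an unadjusted p under 0.05 among 3 (11.2% of all genes).

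These genes too followed the intestinal list unequally over the 8 livers, with r of 0.978 for *Ier3*, 0.943 for *Nfkbia*, 0.942 for *Edn1*, 0.880 for *Klf4*, 0.762 for *Cxcl1*, 0.657 for *Klf2* and -0.735 for *Dusp4* (rho 0.929, 0.976, 0.976, 0.667, 0.738, 0.595 and -0.738). *Nr4a1*, *Fosb*, *Dusp1* and *Zfp36*, singled out after their values were seen, had r of 0.997, 0.966, 0.844 and 0.514 (rho 0.952, 0.833, 0.786 and 0.548). An r of at least 0.9 was found for 8 of 66 (12.1%), against 2.01% of all tested genes outside the list. As the list was in part chosen for its likeness to *Fos*, genes that move with *Fos* are favoured in this count.

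**Figure D5:**
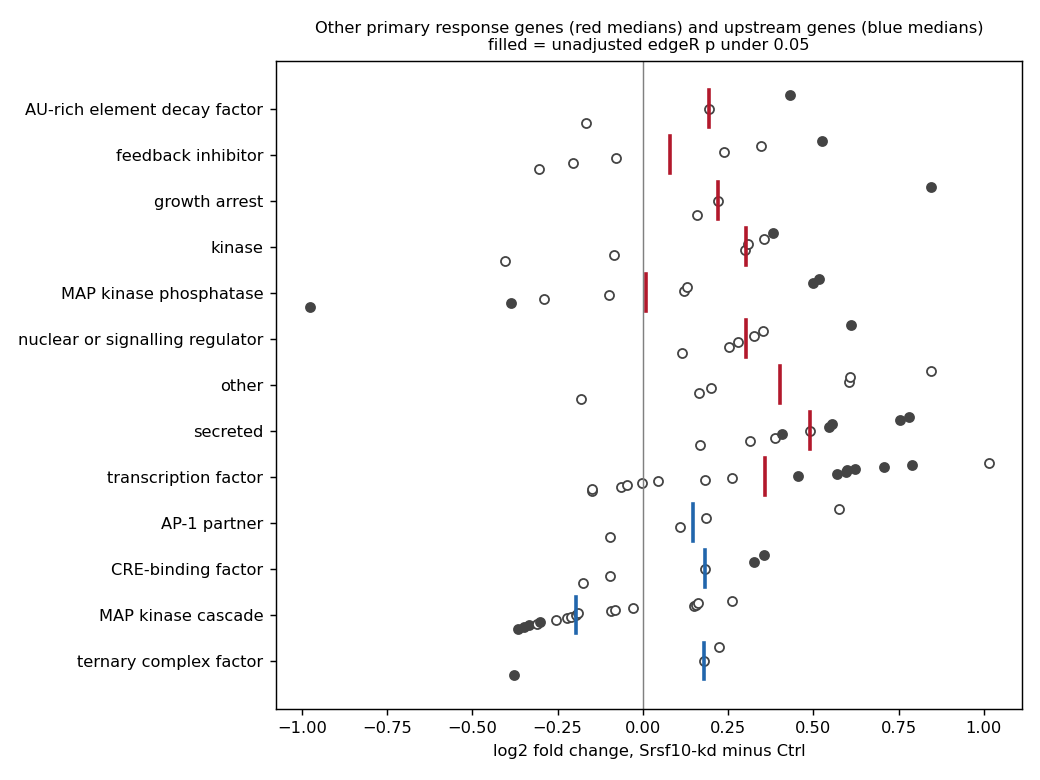
Log2 fold change (horizontal axis) of the tested primary response and upstream genes that are no members, by role (rows with 3 or more tested genes), filled where the unadjusted edgeR p was under 0.05, with the median of each role as a vertical bar, red for primary response and blue for upstream genes. The secreted factors all lie above 0, and most genes of the MAP kinase cascade lie below it (median -0.20). The trend with transcript length was not removed from these values.

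Of 32 genes that act upstream of the members, the kinases and resident factors that switch them on, all were tested and none passed (edgeR, adjusted p under 0.05). At an unadjusted p under 0.05, 2 were higher (11.2% of all genes) and 5 lower (10.6%). In 2 genes the *Srsf10-kd*-labelled livers all lay above *Ctrl* (6.73% of all genes), and in 6 below (7.53%). The median log2 fold change was -0.09, or 0.01 with the length trend removed. *Crem*, a factor of the cyclic AMP response, was at 23.7 to 26.7 CPM in the *Srsf10-kd*-labelled livers and at 17.2 to 23.4 CPM in *Ctrl* (0.35; edgeR, adjusted p = 0.150), and its relative *Atf1* was at 25.1 to 28.5 against 22.3 to 24.8 CPM (0.18; edgeR, adjusted p = 0.264). Of the 17 genes of the MAP kinase cascade 4 were lower at an unadjusted p under 0.05 (10.6% of all genes), and none was higher (11.2%). The 4 were *Braf*, *Rps6ka3*, *Mapk9* and *Mapk14*. *Mapk14*, which encodes p38α, was at 74.1 to 99.4 CPM against 99.5 to 119.6 CPM (-0.35; edgeR, adjusted p = 0.160) and *Mapk9*, which encodes a JNK kinase, at 42.3 to 53.9 against 58.5 to 61.0 CPM (-0.30; edgeR, adjusted p = 0.154). *Creb1*, *Atf2* and *Mapk8* also did not overlap between the groups, by small log2 differences of -0.18, -0.10 and -0.21. With the length trend removed these 3 were at 0.10, 0.03 and -0.00, while *Mapk14* was at -0.27 and *Mapk9* at -0.15. *Braf* was then at -0.04 and *Rps6ka3* at -0.09. The unadjusted p from that edgeR fit was 0.0211 for *Mapk14*, 0.115 for *Mapk9*, 0.663 for *Braf* and 0.546 for *Rps6ka3*.

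By other tests some members passed at an adjusted p under 0.05. DESeq2 called *Fos* (adjusted p = 0.0217) and *Klf6* (adjusted p = 0.0297), 2 of 10 where it called 5.75% of all genes. Limma-voom with sample quality weights called *Fos*, *Jun*, *Atf3*, *Klf6* and *Btg2*, 5 of 10 where it called 11.7% of all genes, with adjusted p of 0.00727, 0.0482, 0.0129, 0.0167 and 0.0484. The edgeR fit without *Ctrl* 3 called *Fos* and *Atf3*, 2 of 10 where it called 3.47% of all genes. The edgeR fit without both *Ctrl* 3 and *Srsf10-kd* 3 was chosen after seeing the data. It called *Fos*, *Atf3* and *Klf6*, 3 of 10 where it called 8.62% of all genes. *Junb*, *Jund*, *Egr1*, *Ier2* and *Klf10* were called in none of the 18 alternatives.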

How the data were processed

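Liver poly(A) RNA of 8 mice was sequenced from both ends with a directional kit. The authors aligned reads to GRCm38 with STAR 2.7.7a (per the labels) and deposited its raw counts per gene. The annotation release and strand column are not given in the sources used here.

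Counts were analysed in R 4.3.3 with edgeR 4.0.16 (TMM, filterByExpr, quasi-likelihood test on condition, two-sided, Benjamini-Hochberg over 15491 genes), with DESeq2 1.42.0 and limma 3.58.1 as alternatives, and were tested on simulated data. Members were also compared by exact permutation (two-sided, 70 divisions of the livers) on log2 CPM with prior count 2. Other alternatives were size factors, filters, a replicate block, trends with length and GC (lowess span 0.5), and livers left out. Totals were 50456404 to 59697241 counts a liver, and the members held at least 352 counts in each. Genes with few counts, such as *Dusp4* (24 to 134), carry more counting error. P-values set the difference between the labels against the spread between livers.

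Positions, transcripts and 3′ UTRs (longest coding transcript) come from GENCODE M21 and promoters from RefSeq GRCm38.p6. All members were named. From the primary response and upstream lists, up to 6 genes per direction with the smallest p among those whose groups do not overlap were named, and the 5 genes most like *Fos* and *Klf10*; 1 gene that the rule names is not reported here. Members and lists were chosen with earlier results of these data known.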

Additional observations from a re-analysis of the deposited data

Results flagged for a closer look

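Among 50 groups of 4 livers (25 named genes in both groups), 4 held a liver whose gap to the next, divided by the range of the group, was above 0.829, where chance gives about 2.5. *Egr1* in *Ctrl* 4 was at 71.5 CPM, above the 19.7 to 27.5 CPM of the other *Ctrl* livers. *Atf3* in *Ctrl* 3 was at 10.3 CPM, the highest of its group. *Klf6* in *Srsf10-kd* 2 was at 16.8 CPM, the lowest of its group, and this liver was also the one with pancreatic transcripts. *Mapk8* in *Srsf10-kd* 3 was at 15.4 CPM, the lowest of its group.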

How the results depend on the processing

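Of 180 alternative fits of single members (10 genes, 18 alternatives each), 166 kept the direction and the side of the threshold, 12 kept the direction and passed, and 2 turned it. Those 2 were *Egr1*, at 0.15 with limma-voom and at 0.21 without *Ctrl* 4, where its range with 1 liver left out was -0.59 to 0.21. The count of all genes called, 11 in edgeR, was 890 with DESeq2, 1814 with limma-voom, 46 with no filter on low counts and 0 to 544 with 1 liver left out. Members called, 0 in edgeR, were 2 with DESeq2, 5 with limma-voom and 0 to 2 with 1 liver left out, the 2 without *Ctrl* 3. Primary response genes called were 12 of 66 with DESeq2, 18 of 66 with limma-voom and 0 to 11 with 1 liver left out, the 11 without *Ctrl* 3. The share of all genes called was 5.75% with DESeq2, 11.7% with limma-voom and 3.47% without *Ctrl* 3. Members whose groups did not overlap, 2 of 10, were 0 with the length trend removed and 2 to 5 with 1 liver left out, the 5 without *Ctrl* 3, where 15.3% of all genes were higher and 16.4% lower without overlap. Without *Ctrl* 3 and *Srsf10-kd* 3, an alternative chosen after seeing the data, 1342 genes were called (8.62% of all genes). Among them were 3 members (*Fos*, *Atf3*, *Klf6*) and 13 primary response genes. In that fit 6 members did not overlap, where 16.4% of all genes were higher and 18.4% lower without overlap. The cause of these changes was not tested. With the replicate number as a block 59 genes and 0 members were called. Livers of the same number correlated in their deviations at -0.18, 0.21, 0.27 and 0.22, and the best partner had the same number for *Srsf10-kd* 2, 3 and 4 but was *Ctrl* 4 for *Srsf10-kd* 1. As the labels name no shared origin and not every same-number pair was above 0.1, the livers were not taken as pairs. The count totals do not limit these genes, which held at least 352 counts in every liver.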
